A study of Mus musculus with 10 samples.

Results

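The lactylation-dominant peaks are 1000 of the 108253 regions of a mouse retina CUT&Tag table, and of its 106533 autosomal regions. They were chosen by measured values. Among the 30136 autosomal peaks with a mean H3K18La level of at least 3 RPKM (reads scaled to the length of a peak and to a library's total) in 25 mM glucose, they had the highest ratio of H3K18La to H3K27Ac. The ratio was log2 of (mean H3K18La + 0.5) over (mean H3K27Ac + 0.5), from 3 H3K18La and 2 H3K27Ac libraries at 25 mM. The ratio at 25 mM is therefore a description of the choice, and so is any difference between 25 and 5 mM glucose. The 5 mM libraries were not used to choose the peaks.

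H3K18La is lactylation of lysine 18 of histone H3, a modification derived from lactate and thus linked to glycolysis. H3K27Ac is acetylation of lysine 27, carried by active promoters and enhancers. Both marks are usually found in open chromatin, and acetylation and lactylation can be written by some of the same enzymes. Photoreceptors, the most abundant cells of the mouse retina, turn much of their glucose into lactate even when oxygen is present.

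The retinas came from wild-type C57BL/6J mice at postnatal day 28 and were kept as explants in Neurobasal-A medium, with glucose at 5 mM or 25 mM, for 48 hours. In CUT&Tag an antibody directs a transposase to the modified histone, and the fragments it cuts are sequenced. The study's methods name such a transposase, pA-Tn5, whereas the sample protocol names a nuclease, pA-MNase. H3K18La was profiled in 3 libraries at each glucose level and H3K27Ac in 2 libraries at each level, with 500000 cells per assay and 1 batch given by the labels for all 10. The whole retina was profiled after removal of the pigment epithelium, so the number of cells that carry a mark and the amount of mark per cell cannot be told apart. The series calls its libraries biological replicates but does not give the animals behind each one, so p-values measure the spread between these libraries. The H3K27Ac antibody is named in the study's methods and not in the sample protocol, which names antibodies to H3K18La and H3K9me3. The peak set has the size of the study's merged set of H3K18La peaks of developing retina. For the explants the methods name a merged set of H3K18La and H3K27Ac peaks, used for their principal components, and do not tie the deposited table to either set.

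The denominators behind the RPKM values ranged from 1358008 to 7424470 reads. Reads in peaks made up 11.8% to 12% of the denominator in the 5 mM H3K18La libraries and 31.2% to 35.0% at 25 mM. The range was 21.1% to 31.5% for H3K27Ac at 5 mM and 56.5% to 69.5% at 25 mM. The promoters of the 12 rod markers carried strong H3K27Ac, with a median of 24.9 RPKM over 11 genes with a promoter peak, against 5.53 RPKM over all genes with an autosomal promoter peak. Of the 9 microglia markers 1 had a promoter peak, at 0.983 RPKM.

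The peaks were poor in CpG, the cytosine-guanine pairs that mark most promoters. The central 300 bases of 4 of them are shown with each CpG in capitals. They are the 2 peaks with the highest ratio, 1 peak called higher in H3K18La at 5 mM, and the promoter peak with the highest ratio. All are the plus strand of GRCm38, and they lie at chr12:16322613-16322912 (assigned to Gm48605), chr10:95109749-95110048 (Gm48868), chr15:86899636-86899935 (Gm49466) and chr15:86989702-86990001 (Gm49468).
Gm48605: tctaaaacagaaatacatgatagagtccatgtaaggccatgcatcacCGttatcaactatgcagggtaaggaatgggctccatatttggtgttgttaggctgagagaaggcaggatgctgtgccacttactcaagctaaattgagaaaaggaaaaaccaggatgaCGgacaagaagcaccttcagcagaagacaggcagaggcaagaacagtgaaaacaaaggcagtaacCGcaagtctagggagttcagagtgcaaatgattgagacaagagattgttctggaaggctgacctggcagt
Gm48868: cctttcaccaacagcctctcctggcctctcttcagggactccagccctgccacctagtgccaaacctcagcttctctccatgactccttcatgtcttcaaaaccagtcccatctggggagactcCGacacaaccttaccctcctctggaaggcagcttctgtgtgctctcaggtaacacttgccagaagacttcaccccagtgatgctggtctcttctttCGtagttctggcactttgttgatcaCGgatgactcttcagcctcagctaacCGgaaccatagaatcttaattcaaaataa
Gm49466: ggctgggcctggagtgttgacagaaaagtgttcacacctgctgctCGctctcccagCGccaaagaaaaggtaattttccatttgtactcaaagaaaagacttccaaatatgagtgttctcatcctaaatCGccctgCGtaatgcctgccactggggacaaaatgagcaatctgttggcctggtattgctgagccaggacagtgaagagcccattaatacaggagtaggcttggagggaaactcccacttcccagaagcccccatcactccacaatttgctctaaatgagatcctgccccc
Gm49468: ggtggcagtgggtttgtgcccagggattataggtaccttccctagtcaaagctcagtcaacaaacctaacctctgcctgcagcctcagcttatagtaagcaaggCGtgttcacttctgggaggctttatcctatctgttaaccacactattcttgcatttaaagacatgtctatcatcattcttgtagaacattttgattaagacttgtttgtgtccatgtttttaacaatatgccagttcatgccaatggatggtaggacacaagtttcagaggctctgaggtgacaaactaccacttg
These windows held 3, 4, 4 and 1 CpG. For contrast, the rule was turned around to give the 1000 autosomal peaks with at least 3 RPKM of H3K27Ac and the lowest ratio, called acetylation-dominant here. The first 2 promoter windows of that list that touch no annotated exon lie at chr4:129622885-129623184 (Ccdc28b) and chr17:25184177-25184476 (BC003965), and held 2 and 21 CpG.
Ccdc28b: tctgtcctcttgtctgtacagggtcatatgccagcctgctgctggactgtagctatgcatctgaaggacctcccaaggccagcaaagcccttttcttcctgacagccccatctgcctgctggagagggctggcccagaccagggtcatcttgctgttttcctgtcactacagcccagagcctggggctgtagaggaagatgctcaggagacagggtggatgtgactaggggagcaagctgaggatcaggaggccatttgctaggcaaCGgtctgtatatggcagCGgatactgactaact
BC003965: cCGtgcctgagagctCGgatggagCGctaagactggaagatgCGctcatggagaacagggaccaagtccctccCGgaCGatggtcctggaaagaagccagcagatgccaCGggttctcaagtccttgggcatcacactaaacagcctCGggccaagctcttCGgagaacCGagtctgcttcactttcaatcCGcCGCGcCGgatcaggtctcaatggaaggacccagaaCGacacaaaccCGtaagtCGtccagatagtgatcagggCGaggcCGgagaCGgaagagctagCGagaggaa
Over whole peaks, the median was 0.886 CpG per 100 bases for the lactylation-dominant peaks and 6.06 for the acetylation-dominant peaks. It was 1.22 for all peaks that could be chosen and 1.18 for all autosomal peaks.

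At 25 mM glucose the lactylation-dominant peaks had as much H3K18La as the other peaks that could be chosen, and less H3K27Ac. Their median H3K18La level was 5.13, 5.61 and 6.26 RPKM in the 3 libraries, and their median H3K27Ac level was 1.29 and 1.43 RPKM. All peaks that could be chosen had similar H3K18La, 5.67 ± 0.57 RPKM (SD, n = 3) for the lactylation-dominant peaks against 5.66 ± 0.23 for the whole. Their H3K27Ac was lower, 1.36 ± 0.10 RPKM (SD, n = 2) against 7.64 ± 0.38. Over all autosomal peaks the values were 1.62 ± 0.098 RPKM of H3K18La (SD, n = 3) and 2.00 ± 0.044 RPKM of H3K27Ac (SD, n = 2). Against these the lactylation-dominant peaks stood apart more in H3K18La than in H3K27Ac. The rule read these same libraries and set a minimum of 3 RPKM of H3K18La. The higher H3K18La than over all autosomal peaks and the lower H3K27Ac therefore follow from the choice.

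The ratio ran from 1.46 at the limit to 2.97 on the log2 scale, with a median of 1.66, or 3.15-fold. Over all 30136 peaks that could be chosen the median was -0.27, and 42.2% had a ratio above 0. Values near the limit were dense. Of the peaks taken, 300 lay within 0.1 of the limit, and 336 that were not taken lay within 0.1 below it. The last peaks inside, assigned to Gm11692 and Gm24490, had ratios of 1.4645 and 1.4644, and the first outside, assigned to 4930543I03Rik and Tmem14a, had 1.4633 and 1.4630.

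**Figure D1:**
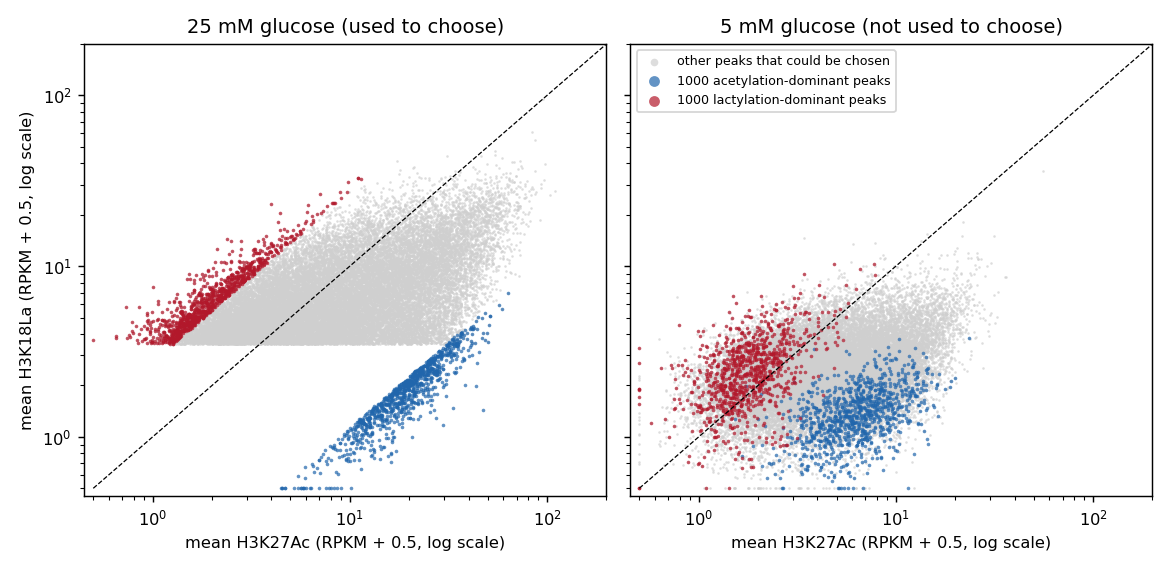
Mean H3K18La (vertical) against mean H3K27Ac (horizontal), both RPKM + 0.5 on log scales, at 25 mM glucose (left) and 5 mM (right); each point is a peak and the dashed line marks equal levels. The 1000 lactylation-dominant peaks (red) lie along the upper left edge at 25 mM because they were chosen there, and at 5 mM 695 of them lie on the H3K18La side in the log2 group means.

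Few reads stood behind each value. The 3 H3K18La libraries at 25 mM gave a median of 37 reads per chosen peak together, with a range of 5 to 418, and the 2 H3K27Ac libraries a median of 14. When the peaks were chosen again without 1 library of each mark and the difference was read from the library pair left out, its median was 0.75 to 1.11 over the 6 pairs, on the log2(RPKM + 0.5) scale. In the same pairs it was 1.51 to 1.86 for the peaks as chosen, and -0.39 to -0.24 for all peaks that could be chosen. The libraries left out thus kept the direction of the ratio but not its full size.

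The 10 peaks with the highest ratio were mostly weak in H3K27Ac to the point of single reads. The first, chr12:16322476-16323050, is assigned to the noncoding gene Gm48605, whose start site lies 90.2 kb away. Its H3K18La level was 3.54, 5.13 and 7.04 RPKM at 25 mM, and its H3K27Ac level was 0 and 0.47 RPKM. A count of 0 there allows up to 3 reads, or 0.725 RPKM in that library. At 5 mM it had 3.30, 1.68 and 3.84 RPKM of H3K18La and 0.80 and 0.28 RPKM of H3K27Ac. All libraries of H3K18La were above all of H3K27Ac at both glucose levels. The mark difference at 5 mM was 1.71 ± 0.55 (SE) on the log2(RPKM + 0.5) scale, and it passed the test (limma, Benjamini-Hochberg adjusted p = 0.0455). The call was lost with any 1 of the 5 mM libraries left out, at limma adjusted p-values of 0.0580 (without H3K18La replicate 3) to 0.363 (without H3K27Ac replicate 2), and with a pseudocount of 0.1 (0.0794).

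The second, chr10:95109765-95110033 near Gm48868, had 1.76, 2.15 and 8.21 RPKM of H3K18La and 0 and 0.60 RPKM of H3K27Ac at 5 mM. These were 1, 3 and 3 reads against 0 and 1. The difference was 2.33 ± 0.67 (SE) with a limma adjusted p of 0.0300. This call was lost with a pseudocount of 0.1 (limma adjusted p = 0.0775) and without H3K18La replicate 2 (0.0882), and kept without H3K18La replicate 1 or 3. The difference was 1.77 without H3K27Ac replicate 1 and 2.90 without H3K27Ac replicate 2. The other 8 did not pass the test. Their adjusted p-values lay between 0.0594 and 0.883 by limma. Of these, chr15:86989580-86990125 at the promoter of the lincRNA gene Gm49468 came nearest, with 14.9, 14.9 and 11.7 RPKM of H3K18La against 2.29 and 1.48 RPKM of H3K27Ac at 25 mM. At 5 mM it had 3.47, 3.53 and 2.70 RPKM against 0 and 1.77 RPKM. The groups did not overlap, and the difference was 1.8 ± 0.62 (SE). The peak in an intron of 2610307P16Rik went the other way at 5 mM, with H3K18La of 0, 1.61 and 0 RPKM and H3K27Ac of 1.94 and 2.69 RPKM, a difference of -1.79 ± 0.74 (SE; limma adjusted p = 0.108). Peaks by Gm23642 (-0.20 ± 0.72) and Reg4 (-0.30 ± 0.87) showed overlapping marks at 5 mM.

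The marks were read with different antibodies, so equal RPKM need not mean equal amounts of mark. Mark differences are therefore given beside those of all peaks tested. Whether the RPKM of H3K18La also exceeded that of H3K27Ac in low glucose was tested on the 5 mM libraries. The limma fit covered the 72467 peaks with a mean of at least 1 RPKM over the 10 libraries. All 1000 lactylation-dominant peaks were in it, but 167 of them only through the H3K18La libraries at 25 mM that had chosen them: over the other 7 libraries their mean was below 1 RPKM. With the minimum read from the 5 mM libraries alone, 840 of the 1000 peaks were tested and 25 of them were called higher in H3K18La, beside 0.219% of the 60793 peaks in that fit. Of these 25, 22 were also called in the fit over 72467 peaks.

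The median level of all 1000 lactylation-dominant peaks at 5 mM was 1.67, 1.97 and 1.84 RPKM for H3K18La and 1.02 and 1.46 RPKM for H3K27Ac, so every H3K18La library lay above both H3K27Ac libraries in this summary. Their mark difference had a median of 0.34 on the log2(RPKM + 0.5) scale (quartiles -0.11 and 0.77), against -0.81 over all peaks tested (quartiles -1.53 and -0.14). It was above 0 for 695 of the 1000, or 69.5%, against 20.3% of all peaks tested. By library pair this share ran from 52.2% (H3K18La replicate 1, H3K27Ac replicate 2) to 81.7% (H3K18La replicate 2, H3K27Ac replicate 1). With 1 library left out the median was 0.17 to 0.50. Over the 840 peaks that reached the minimum in the 5 mM libraries it was 0.42, beside -0.87 over all peaks in that fit.

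At an adjusted p under 0.05, 25 of the 1000 peaks (2.5%) were higher in H3K18La and 0 were higher in H3K27Ac (limma, Benjamini-Hochberg). Over all peaks tested 0.149% were called higher in H3K18La and 19.6% higher in H3K27Ac. At an unadjusted p under 0.05, the lactylation-dominant peaks gave 86 higher in H3K18La and 10 higher in H3K27Ac, where the backgrounds were 0.845% and 33%. Among the 840 that reached the minimum in the 5 mM libraries these counts were 86 and 4, beside 0.989% and 36.5% of all peaks in that fit. The overlap counts that follow were taken over all 1000 only. By overlap alone, 251 of the 1000 had every H3K18La library above both H3K27Ac libraries, against a background of 4.05%, and 31 had every H3K18La library below both, against 45.7%. The choice at 25 mM and the values at 5 mM share peak lengths, mappability and antibodies, so the peaks are not a fresh sample of the genome.

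Without H3K18La replicate 2, or without either H3K27Ac library, 0 of the 72467 peaks passed in either direction by limma, so these fits do not bear on the lactylation-dominant peaks in particular. With 1 H3K27Ac library left, that library is assumed to vary as the H3K18La libraries do. At an unadjusted p under 0.05, 64 of the 1000 lactylation-dominant peaks were higher in H3K18La without H3K18La replicate 2 (0.864% of all peaks tested), 32 without H3K27Ac replicate 1 (0.290%) and 113 without H3K27Ac replicate 2 (1.18%). In the same order 42, 3 and 4 of the 1000 were higher in H3K27Ac, beside 30%, 25% and 13% of all peaks tested. Scaling each library to its own reads in peaks moved the medians of the lactylation-dominant peaks and of all peaks tested together, to 1.14 and -0.039, so that the gap between them was 1.18 in place of 1.15. It left 0 calls at an adjusted p under 0.05. At an unadjusted p under 0.05, 455 of the 1000 were then higher in H3K18La, beside 9.07% of all peaks tested.

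**Figure D2:**
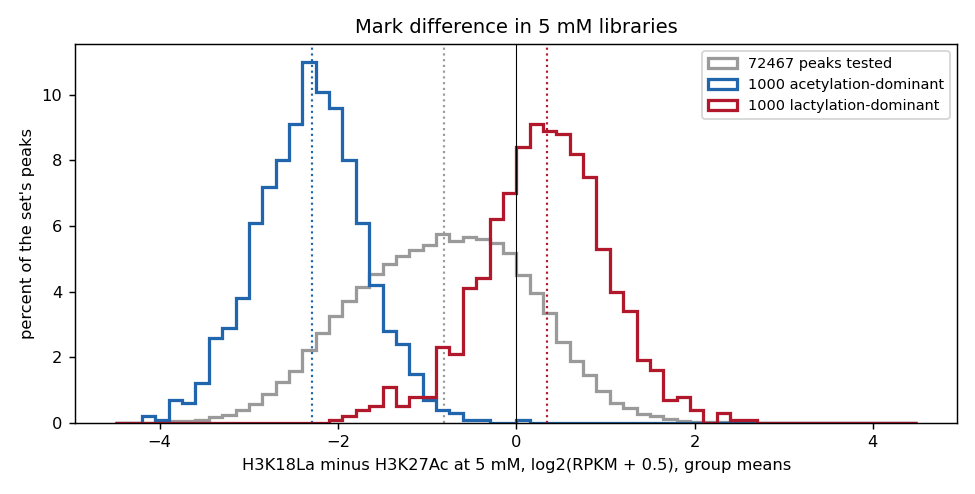
Distribution of the H3K18La minus H3K27Ac difference in the 5 mM libraries (horizontal, log2(RPKM + 0.5), group means) as percent of each set's peaks (vertical); dotted lines mark medians. The lactylation-dominant peaks (red) have a median of 0.34, the 72467 peaks tested (grey) -0.81 and the acetylation-dominant peaks (blue) -2.29.

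The 5 peaks with the largest difference among those called, with no overlap between the marks, were 4 distal intergenic peaks and 1 intronic peak; the peak near Gm48868 is among them. The largest, chr15:86899613-86899959 near the noncoding gene Gm49466, had 1.37, 5.00 and 2.12 RPKM of H3K18La at 5 mM, which are 1, 9 and 1 reads. It had 0 reads in either H3K27Ac library. Each of these allows up to 3 reads, which would be 2.00 and 1.39 RPKM. The difference was 2.58 ± 0.64 (SE; limma adjusted p = 0.0183). A peak 22.3 kb from En2, a homeobox gene of the midbrain and hindbrain, had 8.81, 2.99 and 6.84 RPKM of H3K18La against 0 and 1.99 RPKM of H3K27Ac. Its difference was 2.47 ± 0.66 (SE; limma adjusted p = 0.0225). The En2 call was lost with a pseudocount of 0.1 (limma adjusted p = 0.0804) and without H3K18La replicate 2 (0.0659), and kept without H3K18La replicate 1 or 3. The difference was 1.31 without H3K27Ac replicate 1 and 3.63 without H3K27Ac replicate 2. A peak in an intron of Prkce, which encodes a protein kinase C, had 6.51, 4.86 and 3.37 RPKM against 0 and 1.84 RPKM. Its difference was 2.28 ± 0.62 (SE; limma adjusted p = 0.0241). The Prkce call was lost with a pseudocount of 0.1 (limma adjusted p = 0.0840) and without H3K18La replicate 2 (0.113), and kept without H3K18La replicate 1 or 3. The difference was 1.17 without H3K27Ac replicate 1 and 3.39 without H3K27Ac replicate 2. The peaks by Gm49466, En2 and Prkce kept the order of the marks at 25 mM in all libraries, where they had been chosen. The fifth, near Pabpc6, had 3.33, 0.68 and 2.58 RPKM of H3K18La at 5 mM, which are 2, 1 and 1 reads, and 0 reads in either H3K27Ac library, where 3 reads would be 2.43 and 1.69 RPKM. Its difference was 2.27 ± 0.68 (SE; limma adjusted p = 0.0356), and it did not pass with the minimum read from the 5 mM libraries alone (limma adjusted p = 0.0606).

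The 5 peaks with the most H3K18La at 5 mM differed in their H3K27Ac. They lay in introns of Rora, an orphan nuclear receptor gene of retinal neurons, and of Grik4, a kainate receptor subunit gene, and near Gm49967, Myct1 and Mir205hg. The Rora peak had 9.63, 9.87 and 9.97 RPKM of H3K18La and 5.22 and 9.33 RPKM of H3K27Ac at 5 mM, a difference of 0.46 ± 0.45 (SE; limma adjusted p = 0.512). At 25 mM its H3K18La was 30.2, 29.8 and 36.8 RPKM, against 11.5 and 9.53 RPKM of H3K27Ac. Of the 5, only the Grik4 peak passed the test at 5 mM, with 5.94, 8.46 and 11.1 RPKM against 2.03 and 3.83 RPKM and a difference of 1.40 ± 0.45 (SE; limma adjusted p = 0.0456). Its call was lost with the replicate block (limma adjusted p = 0.177), with a pseudocount of 0.1 (0.0802) and without H3K18La replicate 2 (0.136), H3K18La replicate 3 (0.0922) or either H3K27Ac library (0.263 and 0.304). The peaks near Gm49967, Myct1 and Mir205hg had adjusted p-values of 0.135 to 0.867 by limma.

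Between 5 and 25 mM glucose, H3K18La at the lactylation-dominant peaks was higher by a median of 1.52 on the log2(RPKM + 0.5) scale, beside 1.54 for all peaks that could be chosen, which were themselves chosen on high H3K18La at 25 mM. This value was 0.89 with libraries centred on their median over autosomal peaks and 0.31 with libraries scaled to their reads in peaks. H3K27Ac was higher by a median of 0.17, beside 1.07 for all peaks that could be chosen and 1.61 for the acetylation-dominant peaks. Since low H3K27Ac at 25 mM chose the peaks, these are descriptions with no test. Peaks chosen without 1 of the H3K27Ac libraries, and read in that library alone, had a median of 0.55 (replicate 1) and 0.48 (replicate 2). The same reading for H3K18La gave 0.91, 1.30 and 1.43 for replicates 1, 2 and 3. The H3K27Ac value changes sign with the scaling. It was -0.27 with the same centring, -0.74 with the same scaling, and -0.019 without H3K27Ac replicate 1 at 5 mM. Reads in the lactylation-dominant peaks made up 1.49% ± 0.11 (SD, n = 3) of H3K18La reads in peaks at 5 mM and 1.73% ± 0.27 at 25 mM. They made up 0.447% ± 0.023 (SD, n = 2) of H3K27Ac reads in peaks at 5 mM and 0.237% ± 0.039 at 25 mM.

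**Figure D3:**
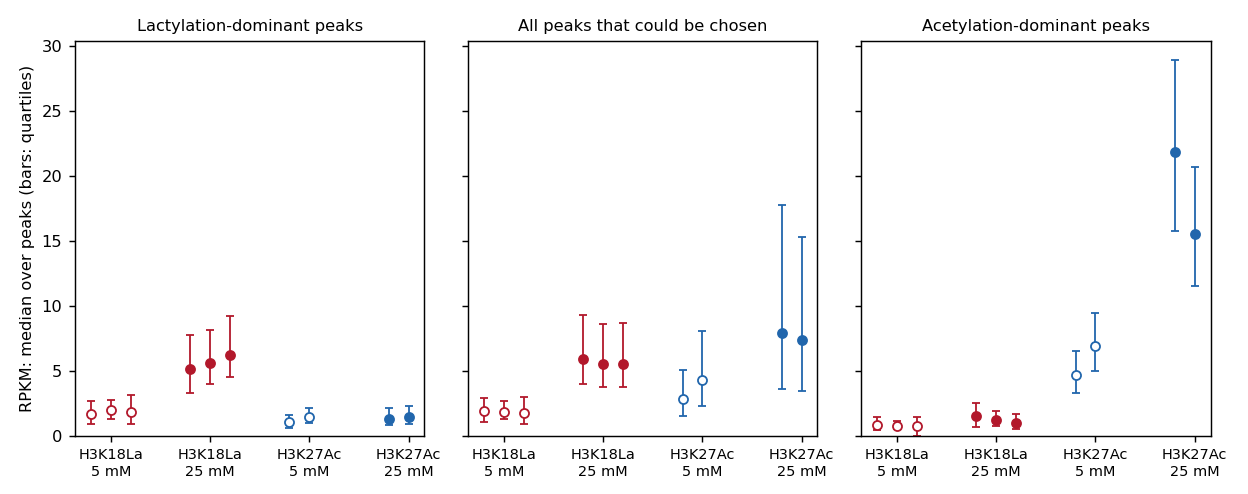
Median RPKM over peaks (vertical; bars are the quartiles over peaks) in every library (points, replicates in order within each mark and glucose level; open, 5 mM; filled, 25 mM) for the lactylation-dominant peaks, all 30136 peaks that could be chosen and the acetylation-dominant peaks. The lactylation-dominant peaks sit at 5.13 to 6.26 RPKM of H3K18La and 1.29 to 1.43 RPKM of H3K27Ac at 25 mM, while all peaks that could be chosen have about as much H3K18La but 7.37 to 7.91 RPKM of H3K27Ac.

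The lactylation-dominant peaks lay away from promoters. By the deposited annotation 579 (57.9%) were distal intergenic, 350 (35.0%) intronic, 30 (3.0%) exonic and 35 (3.5%) at promoters, which reached from -1000 to 500 bp of a start site. Of all peaks that could be chosen, 27.3% were distal intergenic, 47.8% intronic and 16.2% at promoters. Of the acetylation-dominant peaks 87.5% were at promoters and 1.6% distal intergenic. The median distance to the nearest start site was 34.8 kb, against 22.5 kb for all peaks that could be chosen. Beyond 100 kb lay 232 peaks (23.2%), against 18.7% of all that could be chosen. With promoters left out, the medians were 37.6 and 32.4 kb and the shares 24.0% and 22.3%. The assigned transcript was protein-coding for 30.5% of the peaks and a lincRNA for 31.1%, against 61.4% and 12.6% of all peaks that could be chosen.

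**Figure D4:**
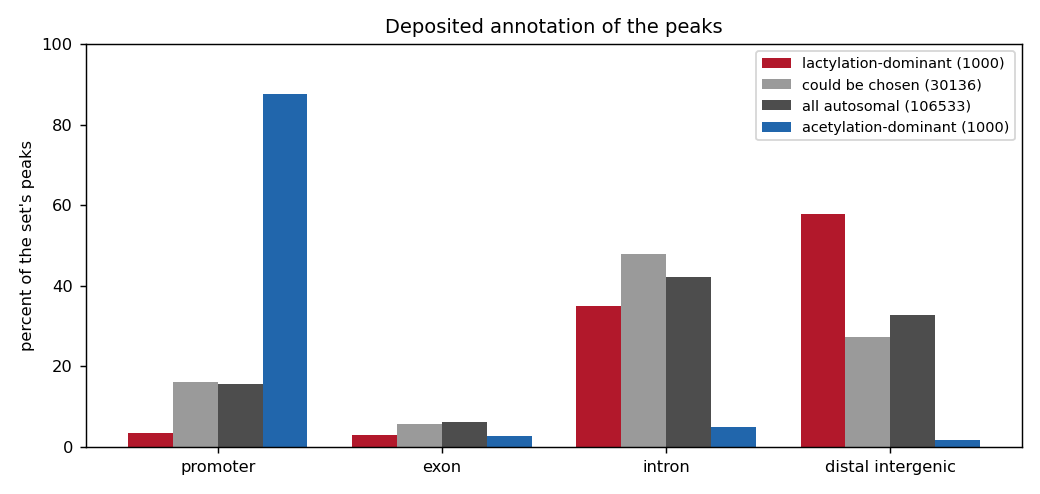
Percent of peaks (vertical) in 4 classes of the deposited annotation (horizontal) for the lactylation-dominant peaks (red), all peaks that could be chosen (light grey), all autosomal peaks (dark grey) and the acetylation-dominant peaks (blue). Distal intergenic peaks make up 57.9% of the lactylation-dominant set, and promoters 3.5% of it but 87.5% of the acetylation-dominant set.

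Part of the sequence contrast goes with this placement. With promoters left out, the median CpG density was 0.871 per 100 bases for the lactylation-dominant peaks, 1.12 for all peaks that could be chosen and 1.56 for the acetylation-dominant peaks. The median GC content was 48.4%, 49.2% and 52.1% in the same order. The peaks were shorter, with a median width of 678 bp (quartiles 470 and 1020) against 937 bp for all peaks that could be chosen. The 5 motifs searched on both strands of the central 300 bases were GGGCGG (the core of SP and KLF sites), TAATCC (the core bound by the photoreceptor homeodomain factors CRX and OTX2), TGCTGA (the core bound by MAF proteins, the family of the rod factor NRL), CAGCTG (an E-box) and TGACTCA (an AP-1 site). No motif contains another. GGGCGG was in 3.8% of the lactylation-dominant windows, 12.2% of all that could be chosen, 11.7% of all autosomal and 55.0% of the acetylation-dominant windows. TAATCC was in 12.4%, 13.8%, 11.5% and 7.6% in that order, TGCTGA in 25.4%, 25.2%, 24.8% and 15.9%, CAGCTG in 17.4%, 20.7%, 20.5% and 15.3%, and TGACTCA in 6.4%, 5.93%, 5.57% and 2.5%. With promoters left out, GGGCGG was in 3.94% of the lactylation-dominant windows and 6.2% of all that could be chosen, TAATCC in 12.3% and 14.7%, and TGCTGA in 25.2% and 26.4%. These shares were not tested.

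Of the 35 promoter peaks, 12 were assigned to protein-coding transcripts and 12 to lincRNAs. After Gm49468, the highest ratios were at Gm30083 (1.84), 2210408F21Rik (1.83), Gm23642 (1.83) and Vmn1r222 (1.82). Vmn1r222 encodes a vomeronasal receptor, a pheromone receptor of the nose. Its promoter had 3.1, 6.49 and 8.89 RPKM of H3K18La and 1.13 and 1.64 RPKM of H3K27Ac at 25 mM. At 5 mM the marks overlapped, with 2.88, 4.31 and 2.99 RPKM against 1.41 and 3.59 RPKM. The Gm30083 promoter kept the order at 5 mM, with 1.8, 2.75 and 6.30 RPKM of H3K18La against 1.54 and 1.07 RPKM of H3K27Ac.

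The peaks ran together along the chromosomes. Another lactylation-dominant peak lay within 20 kb, from centre to centre, for 455 of the 1000 and within 100 kb for 642. For the acetylation-dominant peaks these counts were 179 and 478. Chaining peaks whose starts were at most 50 kb apart, a distance set after the data were seen, gave 31 stretches with at least 5 lactylation-dominant peaks each. These stretches held 309 of the 1000 peaks, had lengths of 27.1 to 439 kb and covered 4.11 Mb. The same chaining gave 4 stretches with 23 peaks for the acetylation-dominant list, of which 87.5% were at promoters. No such count was taken for the other peaks that could be chosen or for distal intergenic peaks. Whether the clustering is particular to the lactylation-dominant peaks was therefore not tested. With 20 kb in place of 50 kb, 119 of the lactylation-dominant peaks were in stretches, and 197 were when the peaks were chosen without H3K27Ac replicate 2 at 25 mM. Of the 31 stretches, 23 overlapped no protein-coding gene of GENCODE M21. The share of eligible peaks taken was 6.21% on chromosome 15 and 6.06% on chromosome 13, against 1.5% on chromosome 5 and 1.59% on chromosome 4.

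The stretch on chromosome 13, chr13:43881156-44200943, held 34 of the 1000 peaks among 70 peaks of the table. It holds no protein-coding gene and lies between Cd83, 78.0 kb away, and Jarid2, 529 kb away, which encodes a partner of the Polycomb repressor. Over all its peaks together, H3K18La was 2.24, 2.42 and 2.68 RPKM at 5 mM and H3K27Ac was 1.26 and 1.86 RPKM. At 25 mM H3K18La was 5.79, 6.80 and 7.45 RPKM and H3K27Ac was 3.28 and 2.85 RPKM. The marks did not overlap at either glucose level. A second stretch with 34 members, chr15:73917616-74356391, had 120 peaks, all with a ratio above 0, and ends 160 kb before Adgrb1, an adhesion receptor gene of neurons. There H3K18La was 2.61, 2.65 and 2.76 RPKM at 5 mM, against 1.65 and 2.34 RPKM of H3K27Ac.

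A pair of further stretches on chromosome 15, with 15 and 14 members, lie between Tbc1d22a and Fam19a5. In the first of them, chr15:86592138-86787596, H3K18La was 10.8, 10.9 and 12.5 RPKM at 25 mM and H3K27Ac 4.87 and 4.14 RPKM. At chr17:48665565-48734213, between Unc5cl and Lrfn2, a synaptic adhesion gene, 12 of 15 peaks were members. H3K18La was 1.90, 2.33 and 1.74 RPKM at 5 mM there, against 0.89 and 1.29 RPKM of H3K27Ac. The largest 5 mM ratio of the 31 was at chr9:69520699-69578047 by Anxa2, with 2.77, 2.94 and 2.72 RPKM of H3K18La and 1.02 and 1.53 RPKM of H3K27Ac. At 5 mM every H3K18La library was above both H3K27Ac libraries in 15 of the 31 stretches, and the mean of H3K18La was above that of H3K27Ac in 30. These values include the members that defined the stretches. No like share was taken for stretches of other peaks, so the counts are a description only. The stretch with the lower mean of H3K18La was chr17:49126383-49253033 past Lrfn2, with 3.29 ± 0.10 RPKM (SD, n = 3) of H3K18La and 4.43 ± 1.30 (SD, n = 2) of H3K27Ac.

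Peaks of the stretches that were not chosen leaned the same way. There were 621 of them, of which 534 reached the H3K18La minimum. Of the 534, 96.1% had a ratio above 0 at 25 mM, their median difference at 5 mM was 0.33 on the log2(RPKM + 0.5) scale, and 71.3% were above 0 at 5 mM. For the 28602 peaks outside the stretches that reached the minimum and were not chosen, 39.2% had a ratio above 0 at 25 mM, the median difference at 5 mM was -0.92, and 18% were above 0. The lactylation-dominant peaks inside the stretches had a median of 0.47 and the 691 elsewhere one of 0.27. Neighbouring peaks share their surroundings and are not independent, and 9 of the 25 peaks called at 5 mM lay in the stretches.

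**Figure D5:**
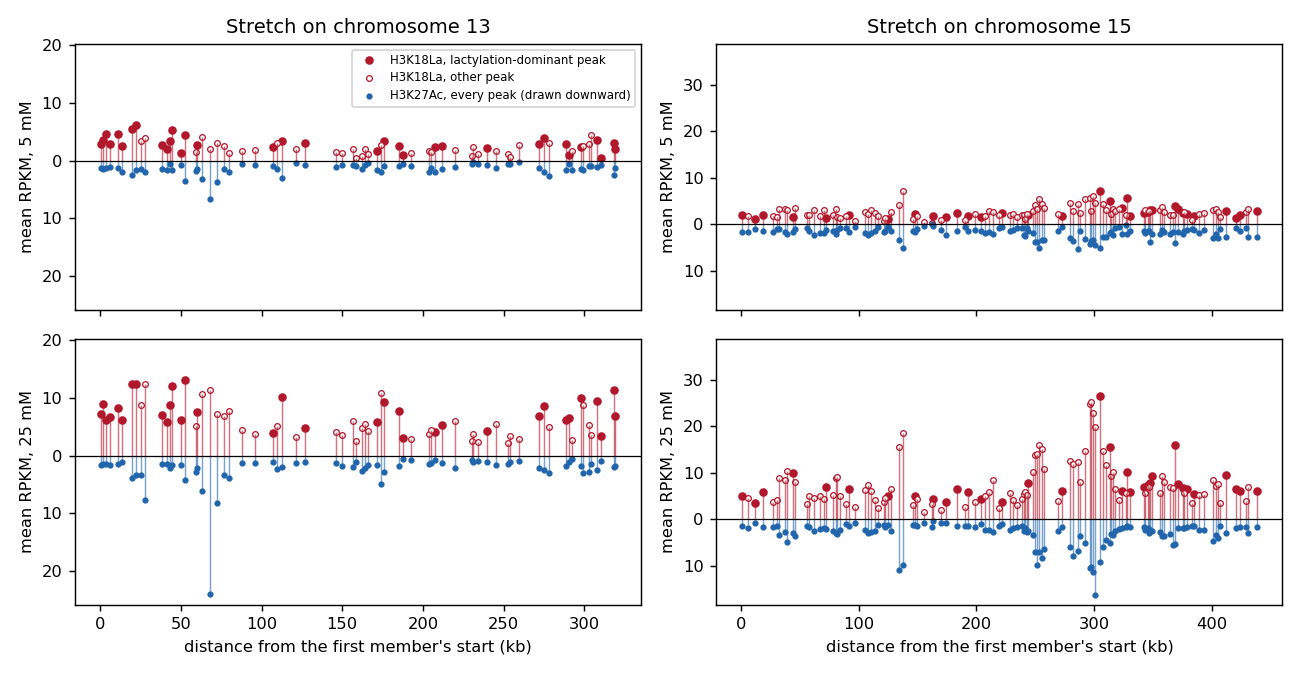
Mean RPKM of every peak (vertical; H3K18La upward in red, H3K27Ac downward in blue) along the stretches on chromosome 13 (left) and chromosome 15 (right) with 34 members each, by distance in kb from the first member's start (horizontal), at 5 mM (top) and 25 mM (bottom); filled red points are lactylation-dominant peaks and open points the other peaks. H3K18La exceeds H3K27Ac over most of both stretches, with single peaks of high H3K27Ac between the members.

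The peaks were assigned to 581 genes, of 24694 with an autosomal peak (2.35%). The noncoding gene Gm15387, in the long stretch on chromosome 15, had the most, 16 of its 54 peaks, followed by 1700121L03Rik with 11 of 61 and Opcml with 11 of 67. Opcml encodes a cell surface adhesion protein of neurons, and its peak with the highest ratio, in an intron, had 2.41, 4.65 and 4.78 RPKM of H3K18La and 0.33 and 0.32 RPKM of H3K27Ac at 25 mM. At 5 mM the marks overlapped, with 0, 2.74 and 1.74 RPKM against 0.55 and 0.76 RPKM. Gm23642 and Gm49464 had 10 peaks each. The Gm49464 peak with the highest ratio had 15.0, 15.0 and 17 RPKM of H3K18La at 25 mM, against 3.87 and 3.98 RPKM of H3K27Ac, but 1.65, 2.01 and 2.56 RPKM against 2.41 and 2.80 RPKM at 5 mM.

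At genes of phototransduction, of glycolysis and of rods the peaks that could be chosen leaned to acetylation at 25 mM, with a median ratio of -1.70 for phototransduction (68 peaks), -1.84 for glycolysis and lactate (50 peaks) and -1.74 for the rod markers (41 peaks), against -0.27 for all. None of 21 phototransduction genes with a peak, 26 genes of glycolysis and lactate and 11 rod markers held a lactylation-dominant peak, where the share over all genes, 2.35%, leaves less than 1 gene to each list. By peaks this was 0 of the 68, 50 and 41 that could be chosen, beside 3.32% over all genes. Markers of bipolar, Muller glia, amacrine, ganglion, horizontal, microglial, vascular and pigment epithelial cells also held 0, as did 26 ion channel and glutamate receptor genes. For many of these lists few peaks reached the H3K18La minimum, for instance 3 of ganglion cell markers and none of horizontal cell markers.

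Of 7 cone marker genes with a peak, Thrb held 2 lactylation-dominant peaks, or 3.51% of the list's 57 peaks that could be chosen, near the 3.32% over all genes. By genes the list's share was 14.3%, beside 2.35% of all genes. Thrb encodes the thyroid hormone receptor that sets cone opsin identity. Both of its lactylation-dominant peaks lay upstream, 186 and 245 kb from the start site. The first had 6.33, 4.08 and 9.79 RPKM of H3K18La and 0.58 and 1.68 RPKM of H3K27Ac at 25 mM, and 1.97, 3.20 and 0 RPKM against 0.96 and 0 RPKM at 5 mM. Its marks overlapped at 5 mM.

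Of 14 photoreceptor transcription factor genes, Esrrb and Casz1 held 6 peaks together, or 3.68% of the list's peaks that could be chosen, near the 3.32% over all genes. By genes the list's share was 14.3%, beside 2.35% of all genes. Esrrb encodes an orphan nuclear receptor of rods, and Casz1 a zinc-finger factor of the developing retina. The intronic Esrrb peak with the highest ratio had 4.18, 9.09 and 9.00 RPKM of H3K18La and 0.86 and 1.38 RPKM of H3K27Ac at 25 mM. At 5 mM it had 1.95, 2.38 and 1.51 RPKM against 1.90 and 1.65 RPKM, so that the marks overlapped. The other peaks of the list's 14 genes leaned to acetylation, and the median ratio over its 163 peaks that could be chosen was -1.20.

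Among 27 synaptic adhesion genes, Sdk1, Dlgap2 and Lrp1b held 1 intronic peak each, with ratios of 1.90, 1.73 and 1.55. They made up 1.79% of the list's 168 peaks that could be chosen, beside 3.32% over all genes. By genes the list's share was 11.1%, beside 2.35% of all genes. Sdk1 encodes an adhesion molecule of retinal synaptic layers, Dlgap2 a postsynaptic scaffold and Lrp1b a large lipoprotein receptor. Of 22 axon guidance genes, Slit3, which encodes a secreted guidance ligand, held 2, or 3.51% of 57 peaks. Slit3 alone was 4.55% of the list's genes. Its exonic peak had 3.33, 9.24 and 4.41 RPKM of H3K18La and 0.45 and 1.10 RPKM of H3K27Ac at 25 mM, and the marks overlapped at 5 mM. The homeobox gene Gbx2, of 17 in its list, held 2 downstream of its start site, of only 10 peaks of the list that could be chosen, with ratios of 1.51 and 1.47. The shares were 20% of these peaks and 5.88% of the list's genes. In the families, 2 of 165 olfactory and vomeronasal receptor genes (Vmn1r220 and Vmn1r222), 1 of 311 zinc-finger genes (Zfp827) and 1 of 68 ribosomal protein genes (Rps15a, from a peak 80.1 kb away) held a peak. These are 1.21%, 0.322% and 1.47% of the genes, beside 2.35% of all genes. Of the peaks that could be chosen, the shares were 9.09% of 22, 0.298% of 336 and 1.15% of 87 in the same order, beside 3.32% over all genes.

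Applied to the 5 mM libraries, the same rule took 1000 of 5828 peaks with at least 3 RPKM of H3K18La, down to a ratio of 0.45. The lists shared 139 peaks, or 13.9% of each. Of the lactylation-dominant peaks, 182 reached the minimum at 5 mM.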

How the data were processed

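CUT&Tag libraries of H3K18La (3 per glucose level) and H3K27Ac (2 per level) from mouse retinal explants were grouped by the sample labels. The authors aligned reads to GRCm38 with nf-core/cutandrun, called peaks with MACS, annotated them with ChIPseeker 1.34.1 and deposited RPKM values over one peak set. Each deposited RPKM value was a whole multiple of that of 1 read in its library (within 0.01 read), so reads and denominators could be recovered. Floors of 3 reads cover counting error only. A deposited table of the authors' own fold changes and p-values for glucose (edgeR 3.40.2) was not used.

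The peaks were chosen in Python 3.11.15. The mark difference at 5 mM was fitted in R 4.3.3 by limma 3.58.1, a moderated linear model with a trend in the variance, from log2(RPKM + 0.5), over the 72467 peaks with a mean of at least 1 RPKM over the 10 libraries. P-values are two-sided and were adjusted by Benjamini and Hochberg over all of these, with a threshold of 0.05. Folds on this scale understate changes of weak peaks. The fit was tested on simulated data. The chosen peaks and the gene lists were selected with earlier results of these data known. The peaks named were, by rule, the 10 with the highest ratio, the 5 called at 5 mM with the largest difference and no overlap, the 5 promoter peaks with the highest ratio, the genes with most peaks, up to 4 peaks per gene list, those at the limit and the 5 with most H3K18La at 5 mM. Coding genes came from GENCODE M21, which gave the same coordinates for 99.7% of 32058 shared transcripts, and sequence from the GRCm38.p6 reference.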

Additional observations from a re-analysis of the deposited data

How the results depend on the processing

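The count of peaks higher in H3K18La at 5 mM, 25 of 1000, moved with most settings of the fit. It was 6 with a pseudocount of 0.1 (0.0276% of all peaks tested, 0.149% in the fit reported), 0 with no filter on weak peaks, 0 with libraries centred on their median or scaled to reads in peaks (0 of all peaks in these 3), 60 with limma voom on recovered reads (0.562%), 63 with all 10 libraries in one fit (0.399%) and 0 at an adjusted p of 0.01. With the filter on the 5 mM libraries alone, added after the data were seen, it was 25 of 840, 22 of them also called in the fit reported. Leaving out 1 library gave 0 to 38, with 31 without H3K18La replicate 1 (0.192% of all peaks), 38 without H3K18La replicate 3 (0.313%) and 0 of all peaks tested without H3K18La replicate 2 and without either H3K27Ac library. The count higher in H3K27Ac, 0 in the fit reported (10 at an unadjusted p under 0.05), was 3 with a pseudocount of 1 (23.7% of all peaks, 19.6% in the fit reported), 1 of 781 with a mean of at least 2 RPKM (37.6%), 5 with all 10 libraries (28.1%) and 0 to 2 with 1 library left out (0 to 24% of all peaks). Over these fits the median of the 1000 peaks lay 0.88 to 1.59 above that of all peaks tested.

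Replicate numbers are shared by the marks, but deviations of same-numbered libraries at 5 mM did not go together (r = -0.015 and -0.000814 across peaks), so they were not treated as pairs. With the replicate block, 46 peaks were higher in H3K18La and 5 in H3K27Ac, beside 0.502% and 24.4% of all peaks tested.

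The median 5 mM difference, 0.34, was 1.01 with centring and 1.14 with scaling to reads in peaks, and 0.17 to 0.50 with 1 library left out. The H3K18La glucose difference, 1.52, was 1.77 and 1.30 with pseudocounts of 0.1 and 1, 0.89 with centring, 0.31 with scaling to reads in peaks, and 0.91 and 1.30 in held-out libraries 1 and 2. The H3K27Ac glucose difference, 0.17, was -0.27, -0.74, 0.55 and 0.48 under centring, scaling and in held-out libraries 1 and 2, and -0.019 to 0.33 with 1 library left out. The cause was not tested.

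Another selection pseudocount kept 899 (0.1) or 902 (1) of the 1000 peaks, a minimum of 2 or 5 RPKM kept 753 or 578, 500 peaks taken were all among them, and leaving out a 25 mM library kept 643 (H3K27Ac replicate 1), 649 (H3K27Ac replicate 2) or 695 to 764 (an H3K18La library). Promoters made up 2.4% of the first 500 and 3.0% to 3.8% otherwise. Median GC content was 48.2% with a pseudocount of 0.1 or a minimum of 2 RPKM, 49.0% with 5 RPKM, 48.2% in the first 500 and 48.2% to 48.9% with a library left out. Median width was 611 bp with 2 RPKM, 731.5 with 5 RPKM, 595.5 in the first 500, 741 in the first 2000, 641 with scaling to reads in peaks and 614.5, 623.5 and 642.5 without H3K18La replicate 3, H3K18La replicate 2 or H3K27Ac replicate 2, up to 680. Alternatives added after the data were seen put 119 peaks in stretches with 20 kb chaining and 197 to 291 with a library left out.

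Of 319 refits of 19 named peaks, 233 kept direction and call, 61 lost and 13 gained a call in the same direction, and 12 turned direction, none from a passing result. Gm23642 (-0.20) became 0.47 (centring), 0.33 (scaling), 0.49 (voom) and 0.37 (block), and -0.64 to 0.37 with a library left out. Reg4 (-0.30) became 0.37 (centring) and 0.46 (scaling), and -1.19 to 0.65 with a library left out, and Mir205hg (0.17) became -0.44 to 0.78 with a library left out.

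Count models (edgeR, DESeq2, TMM scaling) were not run, and limma voom was the fit on recovered reads. Depth limits single peaks: the median peak had 2 to 7 reads in each 5 mM library, and 20.5% of the 1000 peaks had 0 reads in H3K18La replicate 3.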
